A study of Mus musculus with 24 samples.

Results

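The active enantiomer of JQ1 was given to mouse cortical neural progenitor cells for 24 h at 0.5 µM or at 0.2 µM, and the higher dose is compared here with the lower one. The 6 libraries of this comparison, 3 at 0.5 µM and 3 at 0.2 µM, were taken by the enantiomer, dose and time in their titles, out of 24 libraries in the series. No measured value entered that choice. The question of the study, from its title, is how inhibition of BET bromodomain proteins bears on neurogenesis and gliogenesis in these cells.

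All groups came from C57BL/6 mice: cortical cells of embryonic day 12, expanded with B27 supplement and basic fibroblast growth factor, used at passage 3 and moved to differentiation medium for the treatment. The first group received (+)-JQ1 at 0.5 µM and the second (+)-JQ1 at 0.2 µM, both for 24 h. The same doses of (−)-JQ1, the inactive mirror image, at 24 h and of (+)-JQ1 at 12 h serve as further comparisons, each with 3 libraries per group. The submitters describe 3 independent preparations of cells. The number of embryos behind each preparation, and a group without any compound, were not analysed here.

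JQ1 occupies the pockets by which proteins of the BET family, such as Brd2 and Brd3, hold acetylated histones, and so loosens them from chromatin. BET proteins help to bring in P-TEFb, the kinase that releases paused RNA polymerase II. Cortical progenitors can give rise to neurons, astrocytes and oligodendrocytes. In the oligodendrocyte lineage the factors Olig2 and Sox10 come early, Gpr17 and Enpp6 mark the cells that start to differentiate, and Myrf then drives the genes of myelin.

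The deposited values are FPKM, which are reads scaled by transcript length and by the size of the library. Sums of FPKM ran between 460817 and 482130 in the 0.5 µM libraries and between 446799 and 871177 in the 0.2 µM libraries. The second 0.2 µM library stood apart, because Mir5105 alone made up 46.9% of its sum, against 3.07% to 4.03% in the other 5. Without small and ribosomal RNA genes its sum was 434039, within the range of the other 5, 405305 to 438322. Between 16953 and 17161 genes were above 0 at 0.5 µM, and between 17270 and 17434 at 0.2 µM. The progenitor factor Sox2 had 277 to 369 FPKM at 0.5 µM and 254 to 323 FPKM at 0.2 µM. No microglial or erythroid marker reached the level needed for testing, with highest single values of 0.564 and 0.101 FPKM. In bulk RNA, fewer cells of a type and less RNA per cell cannot be told apart.

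Raising the dose to 0.5 µM lowered far more genes than it raised. Of 13801 genes tested, 283 were lower and 14 were higher at 0.5 µM (limma on log2(FPKM + 1), Benjamini-Hochberg adjusted p under 0.05). That is 2.05% and 0.101% of the genes tested, or 2.15% in either direction. A 2-fold difference was reached by 53 of the lower genes and 2 of the higher ones. In 282 of the 283 lower genes and in all 14 higher ones the libraries of the 2 doses did not overlap. For a called gene such a separation therefore adds little to the call. The median log2 fold change was -0.67 over the 283 lower genes and 0.51 over the 14 higher genes, beside -0.06 over all genes tested. With the trend on GC content removed the split was 38 higher and 172 lower genes, and with each library scaled by its median of ratios it was 26 higher and 198 lower.

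Single libraries weighed on these counts. The lower genes numbered 136 without the first 0.5 µM library, 154 without the second 0.2 µM library and 164 without the second 0.5 µM library. The higher genes numbered 1, 4 and 3 in the same order, 7 without the third 0.2 µM library, 24 without the first 0.2 µM library and 65 without the third 0.5 µM library. In all 19 alternatives that were run, 30 genes stayed called, and each of them was lower at 0.5 µM. They include Gpr17, Tnr, Enpp6, Gm98, Cnp, Ugt8a, Aqp4, Nfasc, Myl9, Ppp1r16b, Tspan4, Eln and 3110035E14Rik. None of the 14 higher genes stayed called in all 19.

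**Figure D1:**
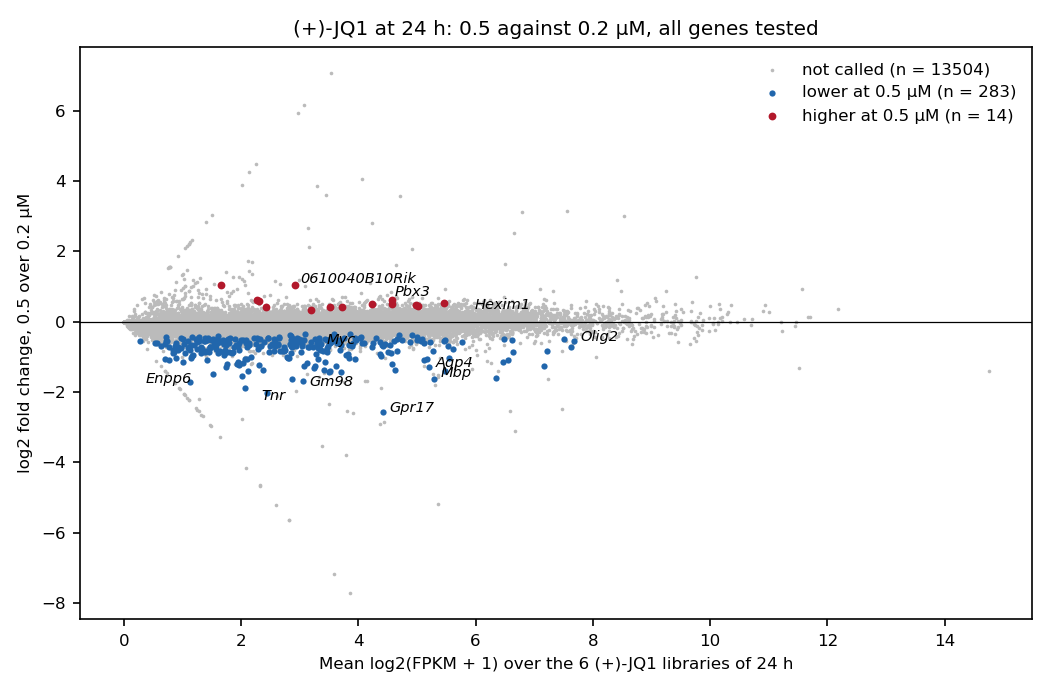
Each point is 1 of 13801 genes, placed by its mean log2(FPKM + 1) over the 6 (+)-JQ1 libraries of 24 h (x axis) and its log2 fold change of 0.5 over 0.2 µM (y axis). Blue marks the 283 genes called lower and red the 14 called higher. Grey points are genes that did not pass the test, some of them far from 0.

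Oligodendrocyte lineage genes moved together. Of 24 listed genes 22 were tested, 15 fell at 0.5 µM and none rose, beside 2.05% of all genes lower and 0.101% higher. The median log2 fold change of the 22 was -0.96. In all 22 the 3 libraries at 0.5 µM lay below the 3 at 0.2 µM, a separation that 15.3% of all genes showed, with 3.81% separated the other way. Mog and Ermn, genes of mature myelin and its sheath, stayed under the level for testing, at no more than 0.232 and 0.0568 FPKM in any of the 6 libraries. The list was made with earlier results of these data known, so its direction is a description.

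Among the early factors, Olig2, a helix-loop-helix factor that specifies the lineage, had 156, 165 and 187 FPKM in the 0.5 µM libraries, against 247, 231 and 262 FPKM in the 0.2 µM libraries. Its log2 fold change was -0.54 ± 0.11 (SE; adjusted p = 0.00992), and the call was lost when the GC trend was removed (-0.30, adjusted p = 0.266) and without the first 0.5 µM library (-0.48, adjusted p = 0.0793). Sox10, which works with Olig2 and later activates myelin genes, had 24.4, 29.2 and 43.7 FPKM at 0.5 µM, against 56.4, 69.0 and 73.0 FPKM at 0.2 µM (log2 fold change -1.04 ± 0.20, adjusted p = 0.00519). For both factors every library at the higher dose lay below every library at the lower dose.

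Sox8, a relative of Sox10, fell by 0.68 on the log2 scale (adjusted p = 0.00283). Pdgfra, which receives the PDGF signal that keeps oligodendrocyte precursors dividing, had 15.7, 16.4 and 15.7 FPKM at 0.5 µM, against 26.2, 29.6 and 23.3 FPKM at 0.2 µM (log2 fold change -0.68 ± 0.10, adjusted p = 6.99e-04). The 3 values at 0.5 µM were nearly equal. Olig1, the neighbour and partner of Olig2, had 147, 173 and 249 FPKM at 0.5 µM and 286, 546 and 337 FPKM at 0.2 µM. Those groups did not overlap either, but the second 0.2 µM library was far above the other values and the difference did not pass the test (-1.01 ± 0.29, adjusted p = 0.0746).

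The differentiation markers Gpr17 and Enpp6 were among the genes that differed most. Gpr17, an orphan receptor of cells that leave the precursor state, had 5.75, 7.66 and 10.6 FPKM at 0.5 µM, against 44.3, 46.8 and 66.1 FPKM at 0.2 µM. Its mean at 0.5 µM was 15.3% of that at 0.2 µM, and its log2 fold change of -2.58 ± 0.21 was the largest among the 283 lower genes (adjusted p = 4.69e-07). Enpp6, a choline phosphodiesterase of newly formed oligodendrocytes, had 0.120, 0.304 and 0.210 FPKM at 0.5 µM, against 2.75, 3.13 and 2.96 FPKM at 0.2 µM. The mean at the higher dose was 7.18% of that at the lower one, and on the log2(FPKM + 1) scale, which understates the change of low genes, the difference was -1.71 ± 0.13 (adjusted p = 3.96e-07).

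Gm98 is the older symbol of Myrf, the membrane-bound factor that switches on myelin genes. It had 2.74, 4.10 and 4.30 FPKM at 0.5 µM, against 12.5, 14.9 and 14.6 FPKM at 0.2 µM (log2 fold change -1.68 ± 0.20, adjusted p = 4.40e-05). Tnr, the matrix glycoprotein tenascin-R, which oligodendrocytes secrete, had 1.67, 1.54 and 1.92 FPKM at 0.5 µM, against 8.08, 11.1 and 11.3 FPKM at 0.2 µM (-2.03 ± 0.21, adjusted p = 7.37e-06). Bcas1, a protein of oligodendrocytes that are beginning to myelinate, had 54.0, 73.8 and 64.3 FPKM at 0.5 µM, against 141, 106 and 173 FPKM at 0.2 µM (-1.10 ± 0.21, adjusted p = 0.0051). In each of these genes the 2 doses did not overlap, a condition for naming Gm98 and Tnr among the largest falls.

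**Figure D2:**
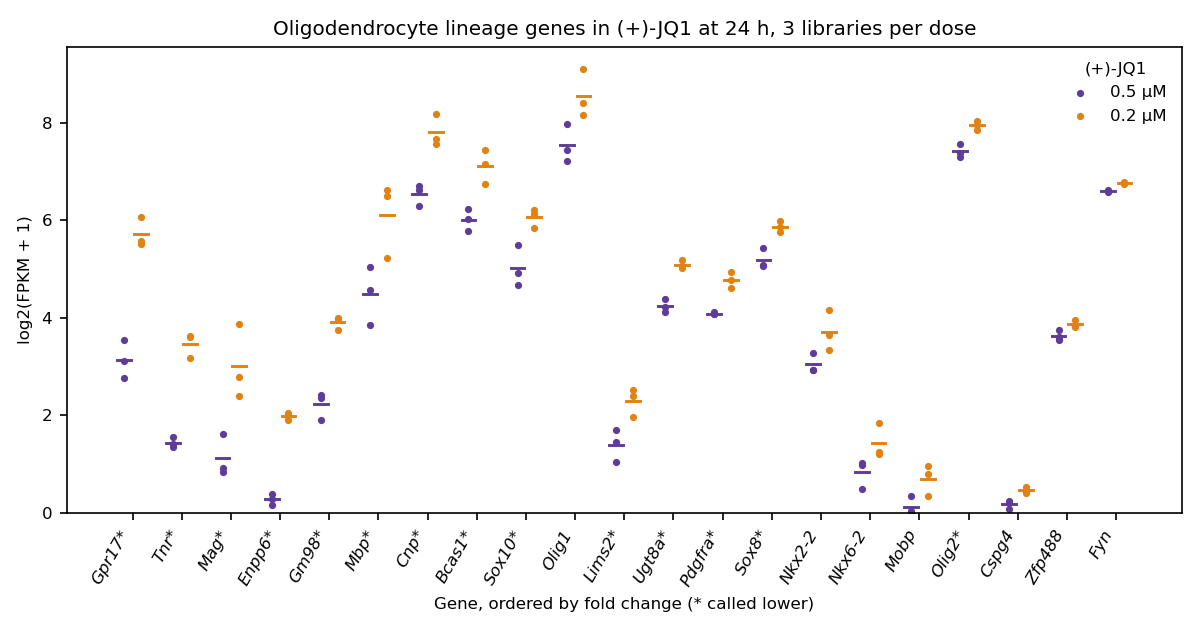
Each point is 1 library; the y axis is log2(FPKM + 1), the short lines are group means, and the genes run from the strongest to the weakest fold change. The libraries at 0.5 µM (purple) lie below those at 0.2 µM (orange) in all 21 genes drawn, and the 14 genes with an asterisk were called lower.

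Genes of the myelin membrane fell as well, with more spread between libraries. Mbp, which compacts the myelin sheath, had 22.7, 31.7 and 13.3 FPKM at 0.5 µM, against 89.1, 97.2 and 36.5 FPKM at 0.2 µM (log2 fold change -1.63 ± 0.30, adjusted p = 0.00408). In Mbp the third library was the lowest and the second the highest at either dose. Its doses did not overlap, a condition for naming it among the largest falls.

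Mag, an adhesion protein between myelin and axon, had 0.889, 2.08 and 0.773 FPKM at 0.5 µM, against 5.91, 13.6 and 4.24 FPKM at 0.2 µM (-1.89 ± 0.27, adjusted p = 2.83e-04). Cnp, an enzyme of myelin cytoplasm, had 77.6, 103 and 97.7 FPKM at 0.5 µM, against 189, 287 and 201 FPKM at 0.2 µM (-1.26 ± 0.17, adjusted p = 2.40e-04). Ugt8a, which makes the galactolipids of myelin, fell by 0.84 on the log2 scale (adjusted p = 4.94e-05). Lims2 was also called, at -0.90. Outside the call, Nkx2-2 had -0.67 (adjusted p = 0.0783), Nkx6-2 -0.61, Mobp -0.58, Cspg4 -0.28, Zfp488 -0.24 and Fyn -0.16.

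The number of the list's genes called lower was 13 to 16 when each library was left out in turn. It was 10 in a fit of the 24 h libraries alone and 6 in a fit of the 6 libraries alone, which has few degrees of freedom.

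The start regions of 5 called genes, picked to show both the presence and the absence of 1 motif, are given from RefSeq on GRCm38.p6, which is not the mm9 build of the deposited values. Each runs from 250 bases before to 50 bases after the annotated start, 300 bases in all, on the strand of the gene. Capitals mark the letters CTGGNAC on either strand, with N for any base. This is a loose form of the motif known for Myrf, so a match need not be that motif. Tnr (chr1:159523519-159523818, plus strand), Cnp (chr11:100574689-100574988, plus strand) and Mag (chr7:30914814-30915113, minus strand) are lower genes of the list and hold 2 matches each. Enpp6 (chr8:46986637-46986936, plus strand) fell too and holds none. Efnb2 (chr8:8661193-8661492, minus strand), a gene higher at 0.5 µM, holds none.
Tnr: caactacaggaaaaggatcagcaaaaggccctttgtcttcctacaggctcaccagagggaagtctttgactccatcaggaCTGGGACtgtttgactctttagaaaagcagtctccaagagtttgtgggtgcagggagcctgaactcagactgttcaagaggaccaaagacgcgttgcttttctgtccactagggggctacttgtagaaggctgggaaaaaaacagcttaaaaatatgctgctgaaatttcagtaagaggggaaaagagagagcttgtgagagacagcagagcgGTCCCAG
Cnp: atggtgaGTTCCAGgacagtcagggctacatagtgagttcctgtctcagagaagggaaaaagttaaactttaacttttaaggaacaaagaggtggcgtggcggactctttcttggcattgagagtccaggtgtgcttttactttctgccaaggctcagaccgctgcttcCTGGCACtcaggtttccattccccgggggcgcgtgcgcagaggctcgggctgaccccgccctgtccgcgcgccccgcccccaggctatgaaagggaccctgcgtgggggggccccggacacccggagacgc
Mag: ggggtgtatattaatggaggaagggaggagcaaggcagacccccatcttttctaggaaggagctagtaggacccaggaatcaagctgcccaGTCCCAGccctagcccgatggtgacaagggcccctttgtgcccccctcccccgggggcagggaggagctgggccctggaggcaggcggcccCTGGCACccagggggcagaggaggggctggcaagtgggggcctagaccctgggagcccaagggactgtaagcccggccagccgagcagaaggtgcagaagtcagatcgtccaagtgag
Enpp6: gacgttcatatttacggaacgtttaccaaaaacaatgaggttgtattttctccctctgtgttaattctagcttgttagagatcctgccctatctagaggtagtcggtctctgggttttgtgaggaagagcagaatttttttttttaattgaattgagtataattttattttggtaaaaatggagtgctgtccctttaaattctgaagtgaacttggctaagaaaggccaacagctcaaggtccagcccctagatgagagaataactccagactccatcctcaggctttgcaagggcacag
Efnb2: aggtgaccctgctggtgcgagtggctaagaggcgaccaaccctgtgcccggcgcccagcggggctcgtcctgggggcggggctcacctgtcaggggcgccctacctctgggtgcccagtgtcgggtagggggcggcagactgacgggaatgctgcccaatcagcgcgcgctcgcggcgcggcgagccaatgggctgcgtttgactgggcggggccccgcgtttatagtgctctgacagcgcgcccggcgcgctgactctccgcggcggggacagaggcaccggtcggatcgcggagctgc
Over the 27025 genes with such a region in the RefSeq table, 19.22% hold at least 1 match, so a match by itself is common. The genes shown overstate how frequent it is in the list: of 22 tested oligodendrocyte genes 14 could be matched to the table, and 5 of these hold a match. Among the 283 lower genes 49 of the 209 that could be matched hold one. With 63.64% and 73.85% matched, a comparison of sets is void, and whether Gm98 acts on these genes was not tested.

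Astrocyte genes were mixed. Of 23 tested, 4 fell (17.4%, beside 2.05% of all genes) and none rose, with a median log2 fold change of -0.17. Aqp4, the water channel of astrocyte endfeet, had 20.4, 22.2 and 25.2 FPKM at 0.5 µM, against 60.2, 45.8 and 64.6 FPKM at 0.2 µM (-1.28 ± 0.19, adjusted p = 6.14e-04). S100b, a calcium-binding protein of astrocytes and of some oligodendrocyte cells, had 1.36, 2.09 and 1.71 FPKM at 0.5 µM, against 4.19, 5.001 and 6.41 FPKM at 0.2 µM (-1.18 ± 0.21, adjusted p = 0.00295). Both genes were well below at the higher dose in every library.

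Aldh1l1, a folate enzyme of astrocytes, fell by 0.49 (adjusted p = 0.0225), and Id3, a BMP-induced inhibitor of differentiation factors, by 1.44 (adjusted p = 0.0363). Id3 had 5.05, 7.90 and 8.38 FPKM at 0.5 µM, against 14.5, 34.8 and 17 FPKM at 0.2 µM. The second 0.2 µM library was the highest for both, and without it, or without the first 0.5 µM library, 2 astrocyte genes remained called. Gfap, the intermediate filament of astrocytes, had 201, 218 and 242 FPKM at 0.5 µM and 235, 294 and 271 FPKM at 0.2 µM. Its doses overlapped (-0.27, 95% interval -0.54 to -0.0028, adjusted p = 0.296).

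Few neuronal and progenitor genes passed the test. Of 25 genes of the neuronal cytoskeleton and synapse, 1 fell and none rose, with a median of -0.01. That share, 4%, is near the 2.05% of all genes called lower. That gene was Dpysl3, a regulator of growth cones, with 151, 144 and 162 FPKM at 0.5 µM, against 209, 233 and 207 FPKM at 0.2 µM (-0.50 ± 0.10, adjusted p = 0.009). Tubb3, the neuronal tubulin, differed by 0.13 with a 95% interval of -0.25 to 0.50, and the microtubule protein Dcx by -0.37 with an interval of -0.73 to -0.0019. Neither passed the test.

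Among 11 proneural factors 1 rose and 1 fell, or 9.09% each, beside 0.101% of all genes called higher and 2.05% lower. Myt1, a zinc finger protein found in young neurons and in oligodendrocyte precursors, had 26.5, 24.6 and 28.5 FPKM at 0.5 µM, against 34.6, 34.0 and 41.0 FPKM at 0.2 µM (-0.45 ± 0.12, adjusted p = 0.0498). The doses did not overlap, and the call held in 5 of 19 alternatives.

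Of 19 stem cell and radial glia genes, Emx2 rose and Tnc fell, with a median of 0.07. The share called lower was 5.26%, beside 2.05% of all genes, and 0.101% of all genes were called higher. Emx2, a homeobox factor of cortical progenitors, had 13.96, 14.1 and 14.8 FPKM at 0.5 µM, against 11.6, 9.09 and 10.7 FPKM at 0.2 µM (0.42 ± 0.11, adjusted p = 0.0449). Tnc, the matrix protein tenascin-C, had 7.06, 9.15 and 4.96 FPKM at 0.5 µM, against 12.0, 18.7 and 10.1 FPKM at 0.2 µM (-0.85 ± 0.20, adjusted p = 0.025). Both genes separated the doses, a condition for naming Emx2 among the largest rises. Of the 6 fits that leave out 1 library, the call of Emx2 held in 1 and that of Tnc in 3. The intermediate filament Nes (0.19, 95% interval -0.16 to 0.54) and Sox2 (0.24, interval -0.04 to 0.53) did not pass.

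In the Notch pathway 2 of 19 genes fell, or 10.5% beside 2.05% of all genes, with a list median of -0.13. Dll3, a Notch ligand that acts within the cell, had 12.8, 12.5 and 18.1 FPKM at 0.5 µM, against 28.4, 50.7 and 39.5 FPKM at 0.2 µM (-1.37 ± 0.21, adjusted p = 6.14e-04). Notch3, a receptor, had 5.91, 6.71 and 7.76 FPKM at 0.5 µM, against 9.93, 18.004 and 10.1 FPKM at 0.2 µM (-0.77 ± 0.19, adjusted p = 0.0347). The doses did not overlap in either gene, a condition for naming Dll3 among the largest falls. The ligand Jag1 (0.28, adjusted p = 0.287) and the targets Hes1 (0.21) and Hes5 (-0.31) did not pass, and Hes5 had 0.08 without the second 0.2 µM library, where it stood at 248 FPKM against 96.2 to 137 FPKM in the other 5.

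The BMP ligand Bmp4 fell beside Id3, so 2 of 18 genes of BMP signalling were called, or 11.1% beside 2.05% of all genes called lower (list median -0.04). Bmp4 was low, with 0.660, 1.27 and 1.21 FPKM at 0.5 µM, against 2.29, 2.40 and 3.38 FPKM at 0.2 µM (-0.85 ± 0.21, adjusted p = 0.0309). These calls were not firm: those of Id3 and Bmp4 each held in 2 of the 6 fits that leave out 1 library, and that of Notch3 in 3 of 6.

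**Figure D3:**
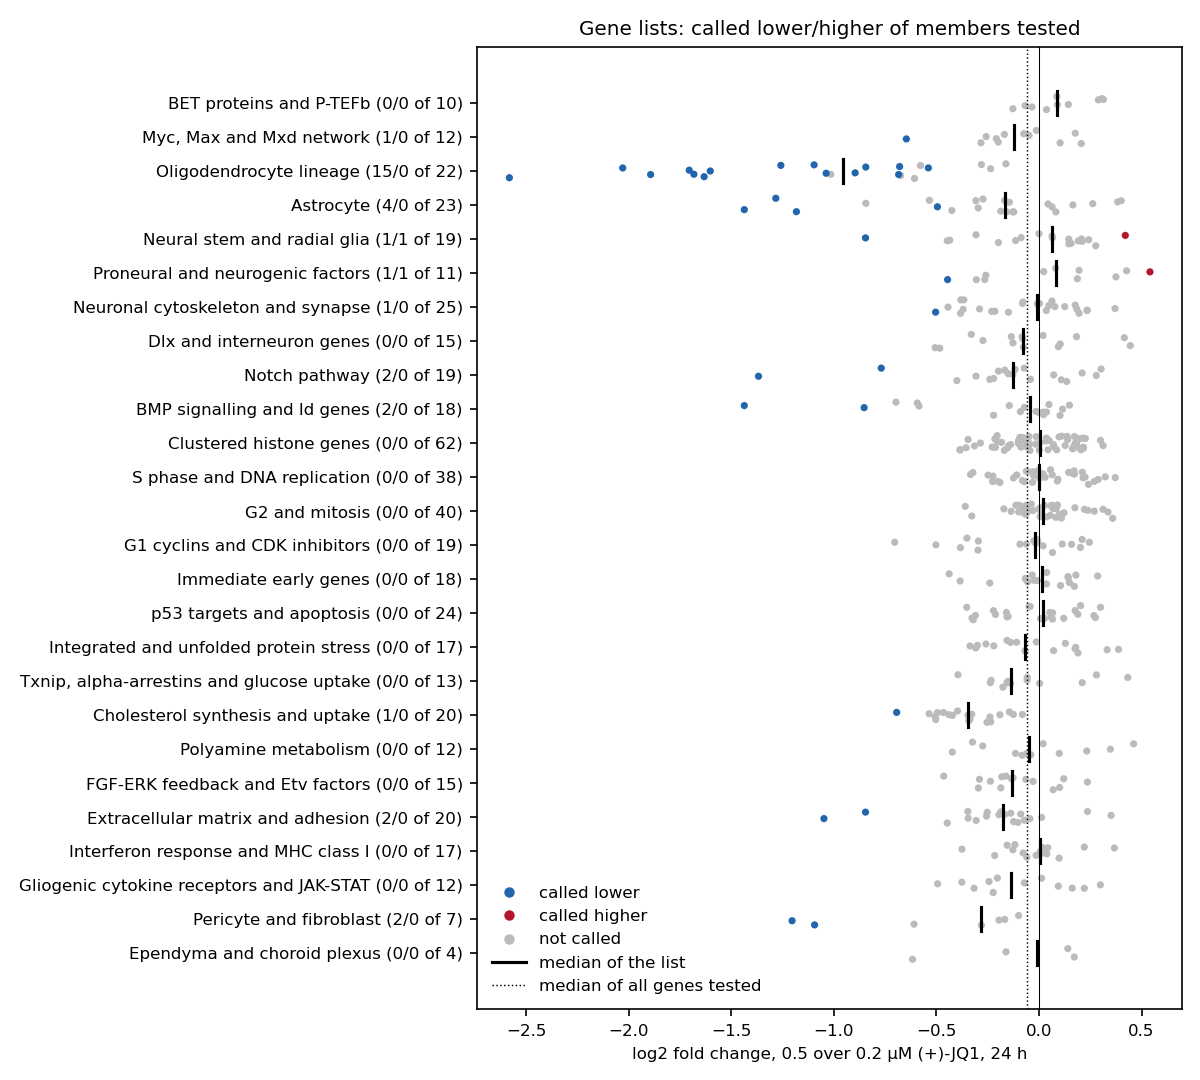
Each point is a tested member of a list, placed by its log2 fold change of 0.5 over 0.2 µM (x axis), with black bars for the medians of lists and a dotted line for the median of all genes tested, -0.06. Only lists with several tested members are drawn. Of these the oligodendrocyte list has the lowest median, -0.96, and cholesterol synthesis the next, -0.34, with 1 member called.

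Myc, the gene of a transcription factor of growth, long used as a readout of BET inhibitors, had 7.13, 7.06 and 7.52 FPKM at 0.5 µM, against 12.4, 11.7 and 11.6 FPKM at 0.2 µM. The libraries of a dose were within a narrow band, and the difference passed the test (-0.65 ± 0.14, adjusted p = 0.0126). It was the 1 gene called among 12 of the Myc network, or 8.33% beside 2.05% of all genes called lower. The call was lost in 4 of 19 alternatives, among them those without the first (-0.64, adjusted p = 0.0603) or the second (-0.63, adjusted p = 0.0577) 0.5 µM library.

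Hexim1, which holds P-TEFb inactive and is a usual marker of BET inhibitor exposure, had 60.8, 67.2 and 65.5 FPKM at 0.5 µM, against 51.7, 52.2 and 52.0 FPKM at 0.2 µM. The groups did not overlap, but the difference missed the threshold (0.31 ± 0.09, adjusted p = 0.0721). It passed in 4 of 19 alternatives. Among them were the median of ratios (0.36, adjusted p = 0.0311), the GC trend removed (0.37, adjusted p = 0.02) and library weights (0.31, adjusted p = 0.0364). It did not pass with the 24 h libraries alone (adjusted p = 0.275) or the 6 libraries alone (adjusted p = 0.327). Leaving out 1 library in turn gave adjusted p from 0.109 to 0.244. None of the 10 tested BET and P-TEFb genes was called by limma, beside 2.15% of all genes, a share at which a list of 10 often holds none. At an unadjusted p under 0.05, a looser threshold, 2315 of all genes passed. Brd2 differed by 0.09 (95% interval -0.13 to 0.31) and Brd3 by 0.14 (-0.08 to 0.37).

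Several genes that separate the enantiomers had similar levels at the 2 doses. Against (−)-JQ1, 38.2% of genes were called at 0.5 µM and 32.8% at 0.2 µM. Those comparisons share libraries with the dose comparison, so only levels are set side by side. Hist2h2bb, a replication-type histone gene, averaged 39.1 ± 7.08 FPKM at 0.5 µM and 39.1 ± 13.3 FPKM at 0.2 µM of (+)-JQ1 (SD, n = 3 each), and 3.16 ± 0.62 and 2.41 ± 1.65 FPKM at the same doses of (−)-JQ1. The dose difference was 0.04 with a 95% interval of -0.61 to 0.68, wide enough to hold a clear change either way.

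Cd82, a tetraspanin, averaged 1.21 ± 0.19 FPKM at 0.5 µM and 1.41 ± 0.32 FPKM at 0.2 µM of (+)-JQ1, and 28.1 ± 4.17 and 28.9 ± 2.05 FPKM at those doses of (−)-JQ1. Its dose difference was -0.12 (95% interval -0.41 to 0.16). Insm1, a factor of intermediate progenitors, averaged 36.4 ± 2.76 FPKM at 0.5 µM and 34.5 ± 4.29 FPKM at 0.2 µM of (+)-JQ1, and 7.996 ± 1.27 and 9.19 ± 3.34 FPKM at those doses of (−)-JQ1. Its dose difference was 0.08 (-0.33 to 0.49), while Gap43, a growth cone protein, differed by 0.05 (-0.39 to 0.48). None of these intervals shows that the doses act alike.

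Gpr17, in contrast, averaged 7.9965 ± 2.43 FPKM at 0.5 µM and 52.4 ± 11.9 FPKM at 0.2 µM of (+)-JQ1, and 365 ± 23.3 and 347 ± 22.5 FPKM at those doses of (−)-JQ1. Aqp4 averaged 22.6 ± 2.45 and 56.9 ± 9.79 FPKM at 0.5 and 0.2 µM of (+)-JQ1, and 246 ± 12.7 and 208 ± 41.2 FPKM at the same doses of (−)-JQ1. Dpysl3 was arranged otherwise, at 152 ± 8.996 and 216 ± 14.4 FPKM at 0.5 and 0.2 µM of (+)-JQ1, and 179 ± 6.18 and 182 ± 20.1 FPKM at the same doses of (−)-JQ1.

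**Figure D4:**
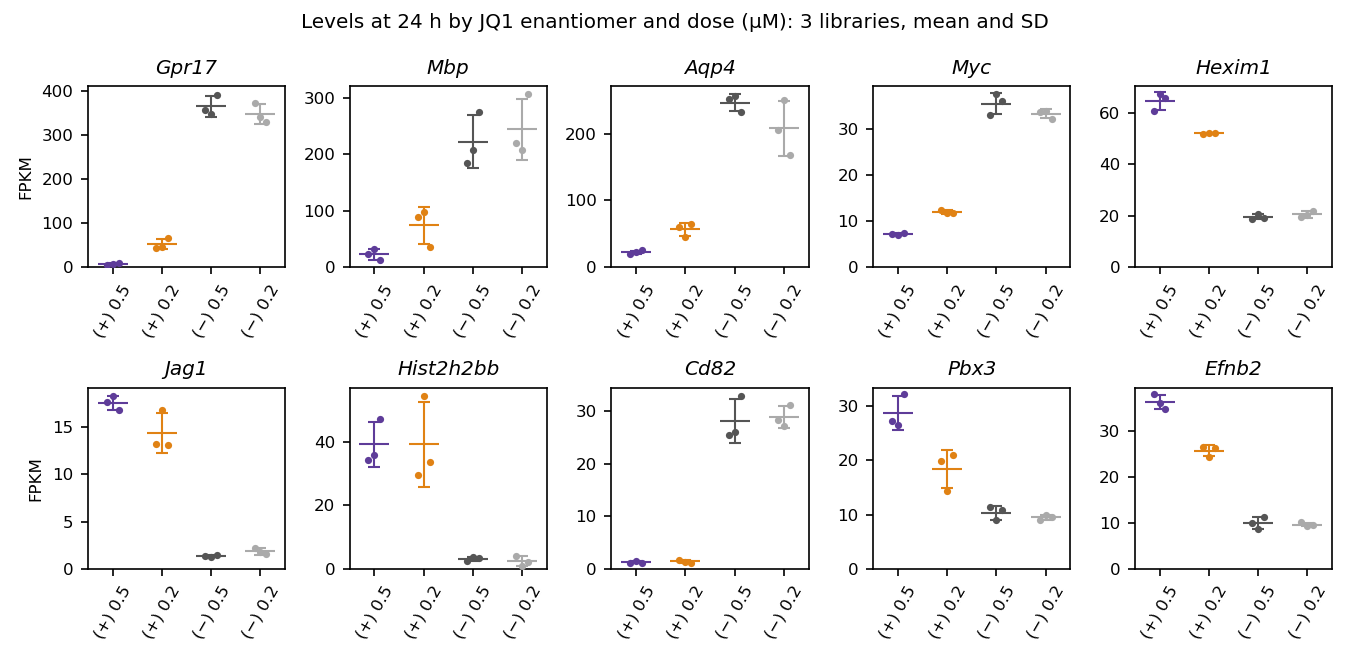
FPKM (y axes, starting at 0) of 10 genes at 24 h in (+)-JQ1 at 0.5 and 0.2 µM and in (−)-JQ1 at 0.5 and 0.2 µM. Points are libraries, bars the mean and SD of 3. Gpr17, Mbp, Aqp4 and Myc are lower at 0.5 than at 0.2 µM of (+)-JQ1, Pbx3 and Efnb2 higher, and Hist2h2bb and Cd82 overlap between the doses.

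Of the 14 higher genes 10 averaged at least 5 FPKM over the 6 libraries. Pbx3, a homeobox partner of Hox and Meis factors, had 27.3, 26.5 and 32.3 FPKM at 0.5 µM, against 19.8, 14.3 and 21.0 FPKM at 0.2 µM (0.63 ± 0.12, adjusted p = 0.00549). Efnb2, the membrane ligand ephrin-B2, had 37.9, 35.957 and 34.7 FPKM at 0.5 µM, against 26.4, 24.3 and 26.3 FPKM at 0.2 µM (0.48 ± 0.11, adjusted p = 0.0214). In both genes all libraries at the higher dose were above all at the lower dose, a condition for naming them among the largest rises.

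Cited2, a CBP/p300-binding regulator, was higher by 0.52, Stim2, a calcium sensor of the endoplasmic reticulum, by 0.50, Prkar2b, a regulatory subunit of protein kinase A, by 0.46, Pcdh19, a protocadherin, by 0.43 and Zcchc2 by 0.33. 0610040B10Rik was higher by 1.04. Of these, Pbx3 and 0610040B10Rik stayed called in 17 of 19 alternatives, Efnb2, Cited2 and Prkar2b in 13, and Stim2 in 11. Pcdh19, Zcchc2 and Emx2 stayed called in 9.

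Other lower genes belonged to contractile cells and matrix. Acta2, smooth muscle actin, had 26.2, 21.4 and 21.4 FPKM at 0.5 µM, against 63.7, 42.2 and 46.5 FPKM at 0.2 µM (-1.09 ± 0.15, adjusted p = 2.40e-04). Myl9, a myosin light chain of smooth muscle, had 7.33, 5.35 and 5.67 FPKM at 0.5 µM, against 19.4, 14.7 and 18.95 FPKM at 0.2 µM (-1.39 ± 0.20, adjusted p = 3.27e-04). Tagln, an actin-binding protein of the same cells, had a log2 fold change of -1.20 (adjusted p = 0.0174). The call of Tagln held in 13 of 19 alternatives, and in 3 of the 6 fits that leave out 1 library.

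The summed FPKM of the 12 pericyte and fibroblast markers was 34.1 to 49.4 at 0.5 µM and 79.6 to 113 at 0.2 µM. Acta2 and Tagln made up most of each sum, so the sums mainly restate those genes. Tagln had 19.7, 16.2 and 9.70 FPKM at 0.5 µM, against 43.8, 34.6 and 28.3 FPKM at 0.2 µM. Of the 12 markers 2 were at 0 in every library at either dose, 7 were tested and 2 were called, both lower. That is 28.6% of those tested, beside 2.05% of all genes called lower. The median log2 fold change of the 7 tested was -0.28. The part of pericytes and fibroblasts in the matrix genes that fell was not tested. Matn4, a matrix protein, fell by 1.05 (adjusted p = 0.011) and with Tnc made 2 called of 20 matrix and adhesion genes. Matn4 was low, averaging 0.136 FPKM at 0.5 µM and 1.399 FPKM at 0.2 µM of (+)-JQ1. Its call held in 14 of 19 alternatives, with log2 fold changes from -2.615 to -0.313. In (−)-JQ1 Matn4 averaged 16.2 and 29.5 FPKM at 0.5 and 0.2 µM, a difference of -0.78 (adjusted p = 0.263). The difference of its dose effects between the enantiomers was -0.27 ± 0.31 and was not called. Summed endothelial markers were 1.04 to 2.28 FPKM at 0.5 µM and 2.28 to 3.10 FPKM at 0.2 µM, and ependymal and choroid plexus markers 31.9 to 36.05 and 28.96 to 35.7 FPKM at those doses.

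All 20 tested genes of cholesterol synthesis and uptake had a log2 fold change below 0 with the values as deposited, mostly by small amounts; other scalings were not tabulated for each gene. Their median was -0.34, beside -0.06 over all genes, and in 11 the libraries at 0.5 µM lay below those at 0.2 µM, beside 15.3% of all genes. Of them 1 was called, and lower, or 5% beside 2.05% of all genes called lower. The same 20 genes had a median of -0.15 between the doses of (−)-JQ1.

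Genes of the cell cycle and of stress did not pass the test. No member was called by limma among 38 S phase genes, 40 genes of G2 and mitosis, 19 G1 regulators, 62 clustered histone genes, 24 p53 targets, 18 immediate early genes or 17 stress genes. Their medians lay between -0.07 and 0.02. The smallest adjusted p in these 7 lists was 0.103. Over all genes tested 2.15% were called, a share at which a short list often holds none. Cdkn1a, the p53-induced cell cycle inhibitor, had a difference of 0.07 with a wide interval (-0.66 to 0.80), and the cyclin Ccnd1 one of -0.03 (-0.46 to 0.41).

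Limma called none of 15 interneuron genes, 13 genes of the alpha-arrestins and glucose uptake, 12 of polyamine metabolism, 15 of FGF and ERK feedback, 17 of the interferon response or 12 of gliogenic cytokine receptors. The medians of these lists ran from -0.14 to 0.01, and their smallest adjusted p was 0.175. These lists are short too, beside 2.15% of all genes called. Txnip, an alpha-arrestin that restrains glucose uptake, had the widest difference of its list to the higher side, 0.43, and did not pass.

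The inactive enantiomer, which does not engage BET proteins, was given at the same doses. In those libraries 1 gene was called, the small nucleolar RNA gene Snora65, or 0.00725% of genes tested, and 1673 had an unadjusted p under 0.05. That count rested on 1 library: without the second 0.2 µM library of (−)-JQ1 it was 1475 genes, 251 higher and 1224 lower. Of the 283 genes lower at 0.5 µM of (+)-JQ1, none was called lower between the doses of (−)-JQ1, and 29 were without that library. The median log2 fold change of the 283 in (−)-JQ1 was -0.10, and 71.0% were below 0, beside a median of -0.03 and 56.6% below 0 over all genes. That median changed sign with the scaling, to 0.0136 with libraries set to the same sum without small and ribosomal RNA genes and 0.0263 with the GC trend removed, and was -0.17 without the second 0.2 µM library. The 22 oligodendrocyte genes had a median of 0.00, and none was called. Without the second 0.2 µM library 3 of them were called lower, with a median of -0.06, and over all alternatives the median ran from -0.12 to 0.11.

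The difference between the dose effects of the enantiomers was itself tested. It was called in 40 genes, or 0.29%, of which 39 were more strongly lowered by the dose of (+)-JQ1. Those 39 are all among the 283 and hold 7 oligodendrocyte genes. The test contains the 6 libraries that called the 283, so this overlap was largely set in advance and is no further support. In Gpr17 the difference of the dose effects was -2.65 ± 0.30 (adjusted p = 1.28e-04), in Enpp6 -1.91 ± 0.19 (adjusted p = 2.60e-05) and in Tnr -2.12 ± 0.29 (adjusted p = 0.00106). The count was 3 in a fit of the 24 h libraries alone and 21 without the first 0.5 µM library of (+)-JQ1. It was 25 and 26 without the first and the third 0.5 µM library of (−)-JQ1 and 62 without its first 0.2 µM library.

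At 12 h the same dose comparison, in other libraries, called 89 genes (0.645%), 5 higher (0.0362%) and 84 lower (0.609%). Of the 283 genes lower at 24 h, 97.5% were below 0 at 12 h, beside 56.5% of all genes, with a median of -0.42, and 61 were called lower. Genes called at both times in the same direction numbered 62, which is 69.7% of the 12 h calls and 20.9% of the 24 h calls. The count at 12 h was 35 to 59 when each of its libraries was left out. The oligodendrocyte list had 13 genes lower at 12 h and a median of -0.75.

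Gpr17 averaged 4.13 ± 1.30 FPKM at 0.5 µM and 36.2 ± 13.4 FPKM at 0.2 µM at 12 h (log2 fold change -2.83 ± 0.21, adjusted p = 1.70e-07). 3110035E14Rik averaged 1.35 ± 0.11 FPKM at 0.5 µM and 4.74 ± 0.87 FPKM at 0.2 µM at 12 h, with a difference of -1.28 at either time. Myl9, by contrast, had -0.20 at 12 h. Of the 14 higher genes 12 were above 0 at 12 h, and Efnb2 was the 1 called (0.55 ± 0.11, adjusted p = 0.0193). Whether a dose effect differed between the times was tested too, and limma called no gene, with 341 at an unadjusted p under 0.05 (117 higher, 224 lower).

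**Figure D5:**
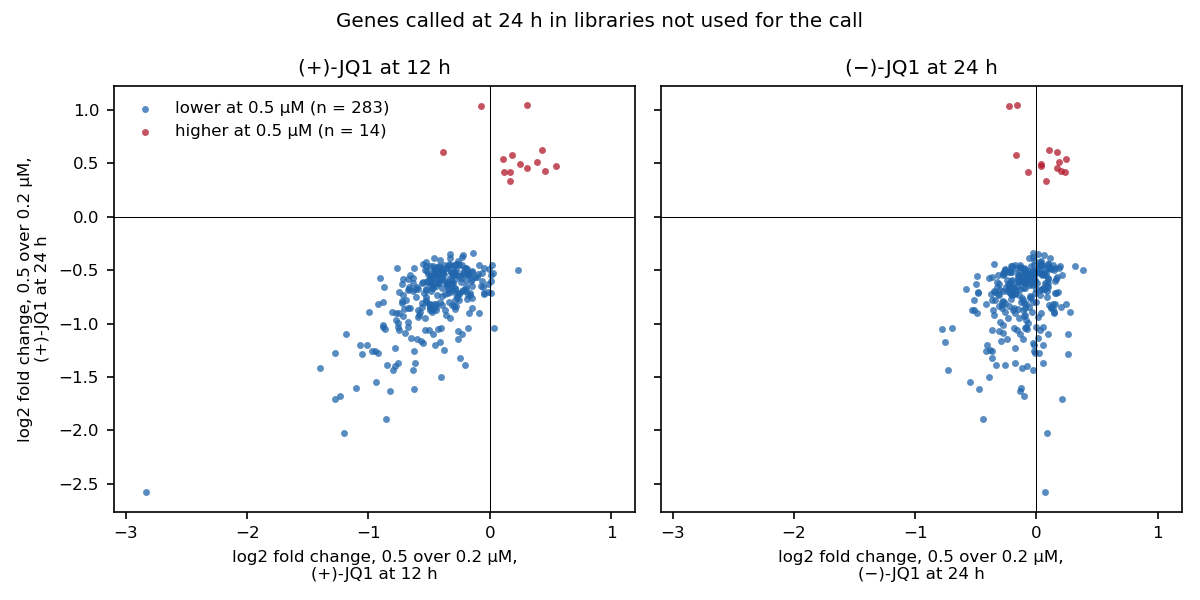
The 297 genes called at 24 h in (+)-JQ1 (y axes, log2 fold change of 0.5 over 0.2 µM), against their dose difference in (+)-JQ1 at 12 h (left) and in (−)-JQ1 at 24 h (right). At 12 h 97.5% of the 283 lower genes (blue) fall left of 0, and in (−)-JQ1 they gather near 0 with a median of -0.10.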

How the data were processed

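RNA of 24 libraries was sequenced as poly(A)-selected, single-end reads, per the labels' protocols. TopHat2, FastQC and mm9 are named in the submitters' processing notes. Which program made the FPKM is not given in the sources used here, nor are versions, and the unit FPKM of the deposited values was taken from the description of the series. Each file held 26694 entries. Symbols that occur more than once (29 symbols, 58 entries) were dropped, and 26636 genes remained. In 1641 of 2186 low genes all values were within 1% of whole multiples of 1 step, which gave relative depths of 0.939 to 1.05. The absolute depth is unknown, so no count test was run.

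A gene was tested where 3 or more libraries reached 1 FPKM. The test was limma 3.58.1 (R 4.3.3) on log2(FPKM + 1). Its model gave each of the 8 groups a mean and let all 24 libraries share the spread, leaving 16 degrees of freedom, and eBayes used its trend and robust options. Calls used a Benjamini-Hochberg adjusted p under 0.05. Intervals are 95% and fold changes are 0.5 over 0.2 µM. The analysis was tested on simulated data.

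Gene lists, 29 in all, and the members named were chosen with earlier results of these data known. Named genes were the 12 called with the largest change in each direction, among genes whose doses do not overlap and that average at least 5 FPKM (small RNA genes left out), the 3 most changed called members of each list, and a fixed set, 62 in all. Other listed genes are given with their list, and genes outside both were chosen after their values were seen. Symbols were matched to RefSeq GRCm38.p6, which also gave start regions, and GC content was found for 94.52% of tested genes. Some genes that the rule names are not reported here. Alternatives covered pseudocount, filter, scaling, GC content, moderation, library weights, the libraries fitted, pairing and leaving out libraries.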

Additional observations from a re-analysis of the deposited data

Results flagged for a closer look

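In 11 genes reported here the difference between the doses of (+)-JQ1 at 24 h was itself different from that between the doses of (−)-JQ1, by the interaction term of limma with Benjamini-Hochberg adjustment. The difference of dose effects, (+) minus (−), was -2.65 in Gpr17, -2.12 in Tnr, -1.91 in Enpp6, -1.58 in Gm98, -0.96 in Ugt8a and -0.72 in Pdgfra, all genes of the oligodendrocyte list. It was -1.55 in Aqp4, -1.42 in Nfasc, an adhesion protein of the axon's nodes, -1.40 in Ppp1r16b, a regulatory subunit of protein phosphatase, -1.30 in Gpr56 (now Adgrg1), an adhesion receptor of precursor cells, and -1.26 in 3110035E14Rik. Adjusted p ran from 2.60e-05 in Enpp6 to 0.0425 in Gpr56. These genes were picked for passing both the dose test of (+)-JQ1 and the interaction test, which share libraries. Over all genes the interaction count was 40, but 3 with the 24 h libraries alone and 17 with library weights. Nfasc had 5.18, 6.89 and 5.01 FPKM at 0.5 µM, against 15.2, 20.8 and 13.3 FPKM at 0.2 µM of (+)-JQ1. Gpr56 had 19.4, 25.7 and 36.4 FPKM at 0.5 µM, against 60.3, 85.1 and 71.8 FPKM at 0.2 µM. Neither pair of groups overlapped, a condition for naming these genes among the largest falls.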

How the results depend on the processing

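The direction of all 40 named genes that were called was kept in every alternative, and 10 of them, all lower, stayed past the threshold in all 19. The 24 h count of 297 was 157 with a pseudocount of 5 (141 lower), 582 with library weights (92 higher, 490 lower), 85 with the 24 h libraries alone (1 higher, 84 lower) and 38 with the 6 libraries alone (0 higher, 38 lower). Higher genes numbered 26 by the median of ratios, 38 with the GC trend removed (172 lower) and 4 without both libraries rich in Mir5105. Leaving out 1 library gave 137 to 375 genes, 1 to 65 higher and 136 to 310 lower. The (−)-JQ1 count was 7 with no filter, 0 with the 24 h libraries alone, 3 without both Mir5105-rich libraries and 1 to 1475 leaving out 1 library. The count for the difference between enantiomers was 17 with a pseudocount of 5, 17 with library weights, 3 with the 24 h libraries alone and 21 to 62 leaving out 1 library. The 12 h count was 137 and 37 with pseudocounts of 0.1 and 5, 302 with library weights, 24 with (+)-JQ1 libraries alone and 35 to 59 leaving out 1 library. Scaling and the GC trend shifted the overall median log2 fold change by no more than 0.07. The cause of these changes was not tested.

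Genes that changed sign were not called with the settings of the report. With library weights Brd2 had -0.000167, Gap43 -0.000541 and Neurod1 -0.0491. With the GC trend removed Neurod1 had -0.0177, Ccnd1 0.0694 and Cd82 0.0710, and by the median of ratios Ccnd1 had 0.0134. Without both Mir5105-rich libraries Gap43 had -0.11, Neurod1 -0.0843, Hes5 0.0822 and Cdkn1a -0.0150. Leaving out 1 library gave -0.0228 to 0.16 in Brd2, -0.00351 to 0.19 in Tubb3, -0.11 to 0.21 in Gap43, -0.0088 to 0.17 in Insm1, -0.0843 to 0.12 in Neurod1, -0.50 to 0.0822 in Hes5, -0.11 to 0.0449 in Ccnd1, -0.0766 to 0.23 in Cdkn1a and -0.14 to 0.29 in Hist2h2bb.

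The numbers in the titles are not stated to mark a shared preparation, and deviations of same-numbered libraries correlated at 0.0912, -0.0454 and 0.0106, so pairing was not used. A fit with the number as a replicate block called 598 genes at 24 h (67 higher, 531 lower), 97 for the difference between enantiomers and 237 at 12 h. Hexim1 passed in that fit too (0.31, adjusted p = 0.0235). The depth limits low genes: 129 of the 283 lower genes average under 5 FPKM.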

Other observations

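Some genes outside the lists, chosen after their values were seen, were also lower at 0.5 µM. Several are known from myelin: Gal3st1, which sulphates galactolipids, had 1.17, 1.38 and 1.58 FPKM at 0.5 µM, against 5.25, 6.91 and 5.73 FPKM at 0.2 µM (-1.55 ± 0.20). Fa2h, a fatty acid hydroxylase, was lower by a log2 fold change of -1.22, the tight junction protein Cldn11 by -1.27, the myelin glycoprotein Omg by -1.20 and the tubulin Tubb4a by -1.14. Cldn11 was the 1 lower gene whose doses overlapped.

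Other lower genes were chosen in the same way, with no list behind them. Eln, elastin, had 4.95, 5.28 and 4.66 FPKM at 0.5 µM, against 12.2, 17.9 and 12.3 FPKM at 0.2 µM (-1.32 ± 0.23). Fbln5, which organises elastic fibres, had -0.94, the crosslinking enzyme Loxl1 -0.78, Efemp2 -0.72 and the TGF-beta binding protein Ltbp3 -0.69. The glutamate transporter Slc1a1 had -1.05 ± 0.10 and the astrocyte membrane protein Mlc1 -1.07 ± 0.18. Srebf1, a factor of lipid synthesis, had 12.4, 13.2 and 16.9 FPKM at 0.5 µM, against 22.7, 37.7 and 24.1 FPKM at 0.2 µM (-0.92 ± 0.20). The enantiomer effect at each dose is shared with these libraries and was not compared with these values.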
